A study of Homo sapiens with 4 samples.

Results

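The nuclear genes for the subunits of the 5 oxidative phosphorylation complexes were followed across 4 RNA-seq libraries of thyroid cancer cells held at 37 or 40 °C. They were chosen by symbol alone, as protein-coding genes of the nuclear chromosomes named NDUFA, NDUFB, NDUFC, NDUFS or NDUFV with a number, NDUFAB1, SDHA to SDHD, any UQCR gene, CYC1, COX4 to COX8 genes and any ATP5 gene. This gave 91 of the 58884 genes in the table, with 38 in complex I, 4 in complex II, 10 in complex III, 19 in complex IV and 20 in complex V. NDUFA4 and its paralogue NDUFA4L2 were counted with complex IV, where the NDUFA4 protein is now placed.

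The libraries came from 2 established human lines, both derived from papillary thyroid carcinoma: TPC-1, which carries a RET fusion, and B-CPAP, which carries a BRAF mutation. Each line gave 1 library at 37 °C, the control, and 1 at 40 °C, in flasks submerged at that temperature. The labels disagree on how long the flasks were submerged: 24 h by the treatment field, 20 min by the design text and 15 min by the protocol for growth. With 1 library per line and temperature there was no replicate, so each line stands in for a replicate of the temperature comparison, and each temperature for a replicate of the line comparison.

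Oxidative phosphorylation takes electrons from NADH at complex I and from succinate at complex II, passes them through complex III and cytochrome c to oxygen at complex IV, and uses the proton gradient built on the way to make ATP at complex V. Most subunits are made from nuclear genes in the cytosol and imported, and a small core of complexes I, III, IV and V is made from mitochondrial DNA inside the organelle. Some subunits of complex IV exist as tissue isoforms encoded by paralogous genes. In the thyroid, oncocytic tumours, whose cells are packed with mitochondria, are the best known setting of altered oxidative phosphorylation.

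Values are TPM, a transcript abundance scaled for gene length and for the library's total, so that levels can be compared between genes. Where a gene has a pair of values for a line, the 37 °C library comes first and the 40 °C library second. The estimated depth was 20704758 to 24466589 reads per library, and mitochondrially encoded genes took 16.8% to 23.9% of the TPM, more at 40 °C than at 37 °C in each line. The follicular factor PAX8 was present at 98.9 to 284 TPM, and 4 of 8 follicular markers had a mean of at least 1 TPM. None of the 5 endothelial and none of the 6 leukocyte markers reached a mean of 1 TPM, while 5 of 7 fibroblast markers did. The 7 fibroblast markers summed to 9.17 and 9.59 TPM in TPC-1, against 38.1 and 46.7 TPM in B-CPAP. COL3A1 and LUM were at 0 in TPC-1, and COL1A2 was at 0 and 0.0155 TPM there. COL1A1 was at 2.95 and 2.82 TPM in TPC-1, against 10.4 and 10.3 TPM in B-CPAP. PDGFRB went the other way, at 6.19 and 6.72 TPM in TPC-1, against 4.15 and 4.65 TPM in B-CPAP. Of 5 epithelial markers, KRT8 and KRT18 reached a mean of 1 TPM. With the temperature they went from 168 to 139 and from 283 to 236 TPM in TPC-1, and from 570 to 431 and from 235 to 183 TPM in B-CPAP. The part of these markers in the differences between lines and temperatures was not tested. In bulk RNA a smaller number of cells of a kind and less RNA per cell cannot be told apart.

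The coding sequences of the members with the highest and the lowest mean difference at a mean of at least 5 TPM are shown first, with G and C in capitals. NDUFB3, an accessory subunit of complex I (ENSG00000119013, chr2:201071433-201085750, plus strand, GRCh38), has 127 G or C among 297 coding bases, or 42.8%, and 48.5% over its merged exons. ATP5F1D, the delta subunit of the ATP synthase central stalk (ENSG00000099624, chr19:1241746-1244826, plus strand), has 68.0% over its 507 coding bases and 65.0% over its exons. NDUFB3 is shown whole and ATP5F1D by its first 300 coding bases, of which 213 are G or C, both 5′ to 3′ from the GENCODE 29 transcripts.
NDUFB3: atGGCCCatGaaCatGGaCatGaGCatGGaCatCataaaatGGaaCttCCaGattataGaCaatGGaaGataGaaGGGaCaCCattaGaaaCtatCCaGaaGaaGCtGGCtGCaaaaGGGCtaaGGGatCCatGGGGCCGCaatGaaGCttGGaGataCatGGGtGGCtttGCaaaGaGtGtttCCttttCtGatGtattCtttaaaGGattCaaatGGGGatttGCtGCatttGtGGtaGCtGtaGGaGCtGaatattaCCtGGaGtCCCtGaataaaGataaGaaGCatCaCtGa
ATP5F1D: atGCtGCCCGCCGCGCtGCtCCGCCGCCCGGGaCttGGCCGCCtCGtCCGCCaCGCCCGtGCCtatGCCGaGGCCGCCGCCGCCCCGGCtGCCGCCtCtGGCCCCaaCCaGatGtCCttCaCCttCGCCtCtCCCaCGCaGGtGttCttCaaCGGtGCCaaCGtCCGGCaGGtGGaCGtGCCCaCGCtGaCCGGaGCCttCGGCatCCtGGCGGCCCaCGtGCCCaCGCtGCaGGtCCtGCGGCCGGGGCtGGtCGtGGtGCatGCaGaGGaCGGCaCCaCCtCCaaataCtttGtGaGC

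A second pair shows the sharpest difference between the lines. COX7B (ENSG00000131174, chrX:77899438-77907373, plus strand) encodes a small subunit of complex IV, and COX7B2 (ENSG00000170516, chr4:46734827-46909235, minus strand) is its paralogue, known mainly from testis. Their coding sequences of 243 and 246 bases differ at 51 of 243 aligned bases, 79.0% identity, and the bases that differ, with the extra first codon of COX7B2, are in capitals.
COX7B: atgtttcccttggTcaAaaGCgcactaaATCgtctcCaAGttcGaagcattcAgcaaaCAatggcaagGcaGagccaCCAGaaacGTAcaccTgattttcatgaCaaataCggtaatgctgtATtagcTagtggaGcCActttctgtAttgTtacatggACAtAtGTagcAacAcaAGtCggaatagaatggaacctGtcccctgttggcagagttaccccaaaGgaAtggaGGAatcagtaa
COX7B2: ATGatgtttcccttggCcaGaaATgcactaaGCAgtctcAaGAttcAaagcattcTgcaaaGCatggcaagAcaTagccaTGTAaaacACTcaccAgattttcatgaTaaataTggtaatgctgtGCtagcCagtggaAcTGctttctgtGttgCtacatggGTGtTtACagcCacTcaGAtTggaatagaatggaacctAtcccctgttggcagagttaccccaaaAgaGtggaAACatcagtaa

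Of the 91 genes, 83 had a mean of at least 1 TPM over the 4 libraries and entered the tests, and 78 had a mean of at least 5 TPM. The median tested member lay at 91.5 TPM, against 17.8 TPM for the 11819 tested protein-coding genes with a known GC content. Its median GC content was 48.2%, the same as that of all these genes, and its median merged exon length was 2462 bases against 5118. The highest member was ATP5F1B, the catalytic beta subunit of ATP synthase, at 1624 and 1470 TPM in TPC-1, against 2540 and 2216 TPM in B-CPAP (37 and 40 °C each). It was the top member in all 4 libraries.

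**Figure D1:**
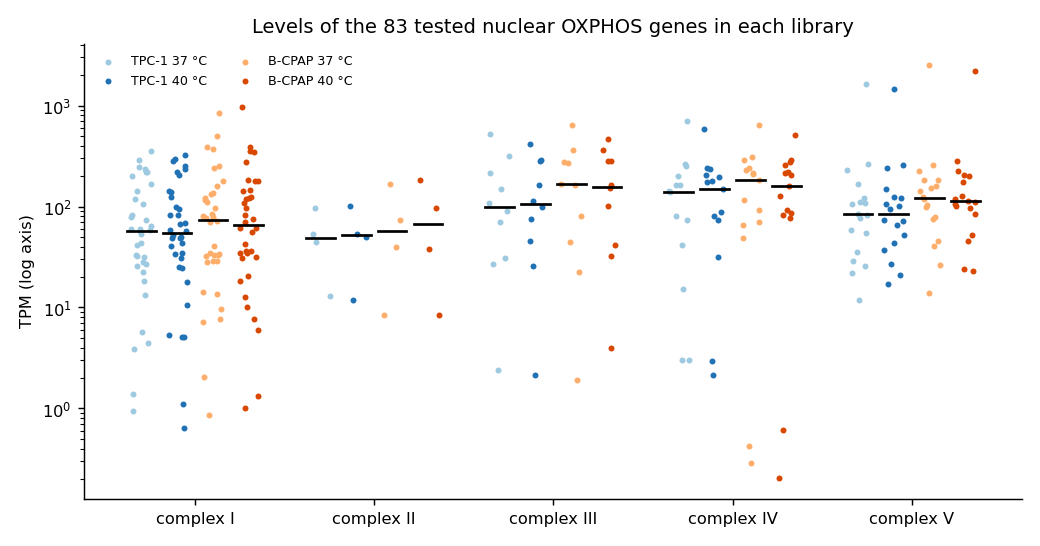
TPM of the 83 tested nuclear OXPHOS genes by complex (log axis), 1 point per gene and library, with the median of each library as a black bar. Values of 0 (COX7B2 in both TPC-1 libraries) cannot be drawn on a log axis and count in the median; medians lie between 49.1 and 185 TPM, and each complex sits higher in B-CPAP than in TPC-1 at the same temperature.

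The 8 genes below the filter were COX4I2, COX6A2, COX8C, COX7A1, NDUFV2, ATP5MGL and the readthrough genes NDUFC2-KCTD14 and ATP5MF-PTCD1. COX4I2, a lung and hypoxia isoform, COX6A2, a heart and muscle isoform, and COX8C, a testis isoform, were listed at 0 in all 4 libraries. COX7A1, another heart and muscle isoform, reached 0.846 and 1.18 TPM in TPC-1 and 0.229 and 0.244 TPM in B-CPAP. NDUFV2 encodes an iron-sulphur core subunit that a working complex I needs, yet it was listed at only 1.04, 1.98, 0.297 and 0.158 TPM. It shares 28.4% of its exon bases with another gene, as do its low neighbours in complex I: NDUFA7 with 33.5% shared and 0.854 to 1.32 TPM, NDUFA13 with 21.0% and 0.639 to 2.03 TPM, and NDUFA11 with 12.1% and 4.41 to 7.26 TPM. Overlap was not confined to low members. Of the tested members, 45 had some overlap, at a median of 67.9 TPM, and 38 had no overlap, at a median of 117 TPM. The 16 with over 20% shared ranged from 1.05 to 606 TPM, at a median of 54.7 TPM. The part of shared exons in these low values was not tested, and their levels are uncertain.

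Summed over all 91 genes, the members held 10417 and 10372 TPM in TPC-1, against 14057 and 13589 TPM in B-CPAP. The sums at 40 °C were 0.996 and 0.967 times those at 37 °C, so the pool as a whole lay within a few percent between temperatures and was higher in B-CPAP at both. By complex the ratio was 1.03 and 1.0 for complex I, 1.04 and 1.12 for complex II, 0.985 and 0.934 for complex III, 1.0 and 0.959 for complex IV and 0.959 and 0.941 for complex V (TPC-1 and B-CPAP). Complex II had the highest ratio in each line. With TPM rescaled to leave out mitochondrially encoded genes, the overall ratios were 1.03 and 0.990, so the side of 1 on which the TPC-1 sum fell depends on that scaling.

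The 13 mitochondrially encoded subunits, the other part of the same complexes, summed to 117280 and 143589 TPM in TPC-1 and to 178948 and 189271 TPM in B-CPAP. They were therefore 1.22 and 1.06 times as high at 40 °C, and the mitochondrial to nuclear ratio went from 11.3 to 13.8 in TPC-1 and from 12.7 to 13.9 in B-CPAP. In complex V the mitochondrial pair MT-ATP6 and MT-ATP8 had a summed ratio of 1.34 in TPC-1 beside 0.959 for the nuclear genes. In complex IV of B-CPAP the values were 1.0 and 0.959. These ratios have no replicate within a line.

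**Figure D2:**
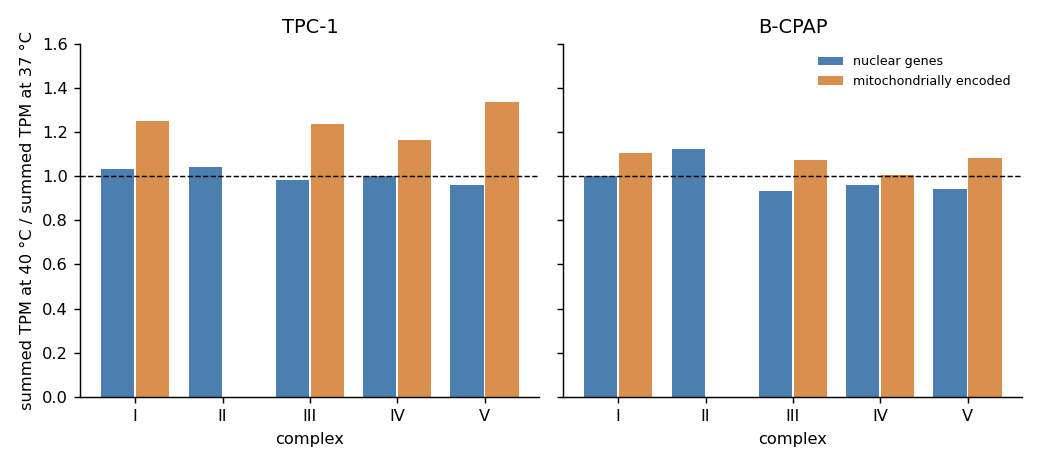
Summed TPM at 40 °C divided by summed TPM at 37 °C (linear axis from 0, dashed line at 1) for the nuclear and the mitochondrially encoded genes of each complex in TPC-1 and B-CPAP, 1 ratio per bar and no replicate. The nuclear bars lie between 0.934 and 1.12, and the mitochondrial bars between 1.0 and 1.34; complex II has no mitochondrial gene.

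Over both lines, limma called 0 of 14912 genes (0%) between 40 and 37 °C at an adjusted p under 0.05, and so 0 of the 83 members, with line as a block and 1 residual degree of freedom. The smallest adjusted p over all genes was 0.0871. At an unadjusted p under 0.05 there were 2905 genes, among them 29 members, 17 of which were higher at 40 °C. The call depends on which genes share the fit. With protein-coding genes only, limma called 1350 genes and 23 members, 14 higher (16.9% of members, background 7.44%) and 9 lower (10.8%, background 3.97%). With a mean of at least 5 TPM required, it called 13 members higher (background 5.02%) and 7 lower (background 3.55%) of 78. In the fit on values adjusted for GC content it called 2 genes (0.0169%, both higher), and NDUFB3 was 1 of them (adjusted p = 0.0335 in limma).

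The 14 members called higher in the protein-coding fit were NDUFB3, COX7B, COX6C, NDUFA5, ATP5PO, NDUFS4, UQCRB, ATP5PB, UQCRH, COX7C, ATP5F1E, NDUFA6, NDUFA12 and NDUFA1. They had a median GC content of 44.3% (37.0% to 53.8%). The 9 called lower were NDUFA13, ATP5F1D, NDUFS8, CYC1, NDUFV1, NDUFB7, NDUFB11, COX8A and UQCRC1, with a median GC content of 60.1% (57.3% to 65.0%). The GC ranges of the called groups did not overlap. Over all 11819 tested protein-coding genes the difference also fell with GC content (Spearman rho -0.59 in TPC-1 and -0.81 in B-CPAP). The GC ranges of all genes called in this fit are not given here, so the split is not read as a trait of the members.

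Within a line, a member was counted as apart when log2(TPM + 1) differed by at least 1.2-fold, with no test. In TPC-1, 15 of 83 were higher at 40 °C (18.1%, background 14.6% of tested protein-coding genes) and 7 lower (8.43%, background 7.23%). In B-CPAP, 22 were higher (26.5%, background 35.2%) and 13 lower (15.7%, background 16.8%). None of these shares lay far above the background, and the share of members higher in B-CPAP lay below it. In both lines at once 12 members were higher (14.5%, background 10.3%) and 6 lower (7.23%, background 3.95%). At 1.5-fold the counts were 3 higher (background 1.51%) and 0 lower (background 0.406%) in TPC-1, and 5 higher (background 11%) and 1 lower (background 0.855%) in B-CPAP. Only COX7B in TPC-1 passed 2-fold (background 0.0846%).

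**Figure D3:**
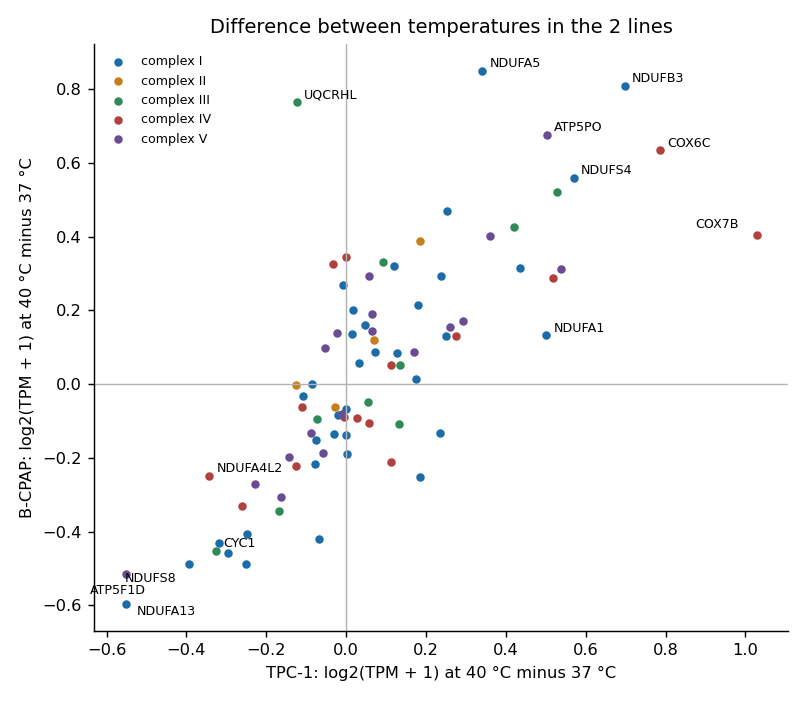
Difference in log2(TPM + 1) between 40 and 37 °C in TPC-1 (x axis) and B-CPAP (y axis) for the 83 tested members, coloured by complex, 1 point per gene and no replicate. Genes of all complexes spread along the diagonal, from NDUFA13 and ATP5F1D at the lower left to NDUFB3, COX6C and COX7B at the right; UQCRHL lies off it.

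The differences of the members in the lines went together, with a Spearman rho of 0.76 over 83 genes (Pearson 0.77), against 0.61 (0.54) over all tested protein-coding genes. Genes are not independent replicates, and all points come from the same 4 libraries. The sign was shared by 68 of the 83 members, 37 of them higher at 40 °C in both lines (44.6%, background 43.3%) and 31 lower in both (37.3%, background 30.5%). Median differences of 0.03 (TPC-1) and 0.05 (B-CPAP) were found, against 0.02 and 0.10 for tested protein-coding genes, and it became -0.07 and -0.13 when the libraries were centred on their median, so no direction is given for the family as a whole.

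Complex I brings electrons from NADH into the chain. NDUFB3, its member with the largest mean difference, had 31.5 and 51.7 TPM in TPC-1, against 80.0 and 141 TPM in B-CPAP. It was higher at 40 °C in each line, 1.64-fold (95% counting interval 1.38 to 1.96) and 1.76-fold (1.6 to 1.94). The mean log2 difference was 0.75 with a standard error of 0.09 and an adjusted p of 0.218 in limma over all genes. These intervals cover counting error only. NDUFB3 shares 19.8% of its exon bases with HYCC2, and how reads there were counted is not known.

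NDUFS4, an accessory subunit needed for a stable enzyme, was at 26.9 and 40.4 TPM in TPC-1, against 41.1 and 61.0 TPM in B-CPAP. NDUFA5 was at 3.85 and 5.14 TPM in TPC-1, against 9.65 and 18.2 TPM in B-CPAP. NDUFA6, one of the LYR-motif subunits, was at 73.7 and 99.996 TPM, against 117 and 145 TPM. All 3 were higher at 40 °C in both lines, and their counting intervals of the ratio lay above 1 in each. NDUFA1, a small membrane subunit, went from 199 to 282 TPM in TPC-1 and from 253 to 277 TPM in B-CPAP, and 44.5% of its exon bases are shared with RNF113A.

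Among the complex I members lower at 40 °C were the core genes NDUFV1, NDUFS8 and NDUFS7. NDUFV1, which binds the flavin, was at 118 and 94.9 TPM in TPC-1, against 112 and 82.8 TPM in B-CPAP. NDUFS8 was at 63.7 and 48.3 TPM, against 79.6 and 56.4 TPM, and NDUFS7 at 13.3 and 10.7 TPM, against 14.1 and 10.03 TPM. All 3 lay lower at 40 °C in both lines, at ratios of 0.758 to 0.801 in TPC-1 and 0.709 to 0.739 in B-CPAP. Other core genes lay nearer to 1 or above it: NDUFS1, the largest core subunit, had ratios of 0.995 and 1.21, and NDUFS3 of 0.949 and 0.899. The GC content was 57.3% in NDUFV1, 59.3% in NDUFS8 and 61.4% in NDUFS7, against 42.3% in NDUFS1 and 52.6% in NDUFS3. Its part in this split was not tested. NDUFS7 shares 49.1% of its exon bases with other genes, and NDUFS3 shares 22.4%.

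NDUFB7, an accessory membrane subunit, was at 351 and 295 TPM in TPC-1, against 499 and 356 TPM in B-CPAP, lower at 40 °C in both. Its upstream region is shown as that of a GC-rich member with lower values, beside that of COX7B2, a GC-poor one absent from TPC-1. Each line below holds the 250 bases before the RefSeq start (GRCh38.p14), read 5′ to 3′, with any match to the searched motifs in capitals: chr19:14572067-14572316 (minus strand, 62.8% GC) for NDUFB7 and chr4:46909246-46909495 (minus strand, 43.2% GC) for COX7B2.
NDUFB7: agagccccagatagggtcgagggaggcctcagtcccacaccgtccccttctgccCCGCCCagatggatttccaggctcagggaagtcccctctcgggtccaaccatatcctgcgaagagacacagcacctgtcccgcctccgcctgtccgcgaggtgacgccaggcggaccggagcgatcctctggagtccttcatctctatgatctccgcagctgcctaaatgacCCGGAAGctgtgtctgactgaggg
COX7B2: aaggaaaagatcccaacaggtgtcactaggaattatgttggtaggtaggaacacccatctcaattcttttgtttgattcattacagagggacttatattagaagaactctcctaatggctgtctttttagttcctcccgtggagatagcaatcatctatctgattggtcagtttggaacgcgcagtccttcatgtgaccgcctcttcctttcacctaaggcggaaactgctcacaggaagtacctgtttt

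The searched motifs were those of factors known to act on respiratory genes, each on both strands: NRF1 (CATGCGC), the ETS core that GABPA binds (CCGGAAG), YY1 (AAGATGG) and SP1 (GGGCGG). Of the 91 members 71 had an upstream sequence in the RefSeq table, 67 of which passed the filter. The ETS core was in 17 of the 71 (23.9%, against 16.4% of 9581 other tested protein-coding genes), NRF1 in 12 (16.9% against 6.60%), YY1 in 4 (5.63% against 3.40%) and SP1 in 40 (56.3% against 68.8%). The NRF1 and YY1 forms replaced longer ones after the counts of those were seen. Their shares are therefore a description only. In NDUFB7 the capitals mark 1 ETS and 1 SP1 match, and COX7B2 had no match. A match is a string of letters and not a site, and none of the motifs holds another of them. Of the members 1.2-fold higher in both lines, 10 had a sequence, with a median upstream GC content of 49.6%. Of those lower in both, 4 had one, with 63.6%, and the median of all 67 was 60.8%. Spearman rho between upstream GC content and the difference was -0.30 (TPC-1) and -0.26 (B-CPAP) over the 67 members. Over the 9581 other genes it was -0.11 and -0.13. These values are a description within the same libraries.

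Complex II, the succinate dehydrogenase of the citric acid cycle, has 4 nuclear genes and none in the mitochondrial genome. SDHD, a membrane anchor, was at 44.3 and 50.4 TPM in TPC-1, against 73.7 and 96.7 TPM in B-CPAP, ratios of 1.14 (counting interval 1.03 to 1.26) and 1.31 (1.23 to 1.41). SDHB, the iron-sulphur subunit, was at 96.7 and 101 TPM, against 169 and 183 TPM. Both were higher at 40 °C in each line, SDHB by little, and its mean difference over the lines turned negative with the libraries centred. SDHC, the other anchor, had ratios of 0.980 and 0.958, and SDHA, the flavoprotein, of 0.910 and 0.998. SDHA was listed at 13.0, 11.8, 8.35 and 8.33 TPM, below the 17.1 to 32.0 TPM summed over its pseudogenes in the same libraries, so its level is uncertain.

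Complex III passes electrons from ubiquinol to cytochrome c. UQCRH, the hinge protein, was at 217 and 291 TPM in TPC-1, against 270 and 363 TPM in B-CPAP, and UQCRB, a ubiquinone-binding subunit, at 31.1 and 45.3 TPM, against 22.5 and 32.7 TPM. Both were higher at 40 °C in each line, UQCRH 1.34-fold and 1.35-fold and UQCRB 1.46-fold and 1.45-fold. UQCRHL, whose coding sequence differs from that of UQCRH at 4 of 276 bases, was at 2.43 and 2.14 TPM, against 1.91 and 3.93 TPM, and reads could be split between the pair. CYC1, cytochrome c1, was at 527 and 420 TPM in TPC-1, against 642 and 468 TPM in B-CPAP. UQCRC1, a core subunit, was at 320 and 285 TPM, against 359 and 283 TPM. These GC-rich genes were lower at 40 °C in both lines, while UQCRC2, the other core subunit, at 70.6 and 75.3 TPM, against 80.9 and 102 TPM, was higher in both.

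Complex IV reduces oxygen to water. COX7B was at 15.1 and 31.8 TPM in TPC-1, against 70.2 and 93.2 TPM in B-CPAP, 2.11-fold (counting interval 1.82 to 2.44) and 1.33-fold (1.24 to 1.42) higher at 40 °C. COX6C was at 41.9 and 72.9 TPM, against 48.8 and 76.3 TPM, 1.74-fold and 1.56-fold higher. COX7C was at 138 and 198 TPM, against 209 and 255 TPM. All 3 were higher at 40 °C in each line, COX7B and COX7C more so in TPC-1, a difference between the lines that was not tested. NDUFA4 was at 73.5 and 89.2 TPM, against 116 and 127 TPM.

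COX8A, the most abundant complex IV member, was at 698 and 582 TPM in TPC-1, against 637 and 506 TPM in B-CPAP. COX4I1, the regulatory subunit that binds ATP, was at 263 and 241 TPM, against 241 and 206 TPM, and COX6B1 at 254 and 235 TPM, against 290 and 278 TPM. All 3 were lower at 40 °C in both lines. COX6A1 differed in direction, at 165 and 178 TPM in TPC-1, against 185 and 160 TPM in B-CPAP.

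Complex V makes ATP. ATP5PO, the stalk subunit once named for oligomycin sensitivity, was at 11.7 and 17.0 TPM in TPC-1, against 14.0 and 23.0 TPM in B-CPAP, 1.45-fold (counting interval 1.22 to 1.72) and 1.64-fold (1.43 to 1.89) higher. ATP5PB, a subunit of the peripheral stalk, was at 82.6 and 120 TPM, against 142 and 176 TPM. ATP5F1E, the epsilon subunit, was at 28.8 and 37.2 TPM, against 75.7 and 100 TPM. All 3 were higher at 40 °C in each line. ATP5F1D was at 106 and 72.3 TPM in TPC-1, against 159 and 111 TPM in B-CPAP, lower at 40 °C in both, at ratios of 0.680 (0.625 to 0.738) and 0.698 (0.657 to 0.742). For the alpha and beta subunits of the catalytic head, ATP5F1A had ratios of 1.05 and 1.11, which centring turned to a negative mean difference, and ATP5F1B of 0.905 and 0.872.

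The rotor ring of complex V is built from subunit c, which ATP5MC1, ATP5MC2 and ATP5MC3 encode as the same mature protein from coding sequences that are 71.7% to 72.9% identical. ATP5MC1 was at 111 and 94.7 TPM in TPC-1, against 154 and 127 TPM in B-CPAP, and ATP5MC2 at 168 and 150 TPM, against 119 and 95.8 TPM. ATP5MC3 was at 108 and 107 TPM, against 125 and 118 TPM. The values at 40 °C were the lower ones for ATP5MC1 and ATP5MC2 in both lines, and those of ATP5MC3 were nearly equal in TPC-1, at a ratio of 0.992.

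The differences followed the GC content of the exons among the members as among all genes. Spearman rho between GC content and the difference came to -0.59 (TPC-1) and -0.69 (B-CPAP) over 83 members, and -0.59 and -0.81 over 11819 protein-coding genes, as a description within the same libraries. Of the 20 members among the 3940 genes with the lowest GC content, 8 in TPC-1 and 10 in B-CPAP were 1.2-fold higher and 0 were 1.2-fold lower. Of those 3940 genes, 30.03% and 77.4% were higher, so GC-poor members lay above the 1.2-fold mark in B-CPAP at a lower share than other GC-poor genes. Of the 20 members among the 3940 genes with the highest GC content, 7 and 11 were lower (17.6% and 45.1% of all genes there) and 1 and 2 higher. The 11 tested members on chromosome 19 had a median GC content of 60.2% and median differences of -0.07 and -0.25.

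**Figure D4:**
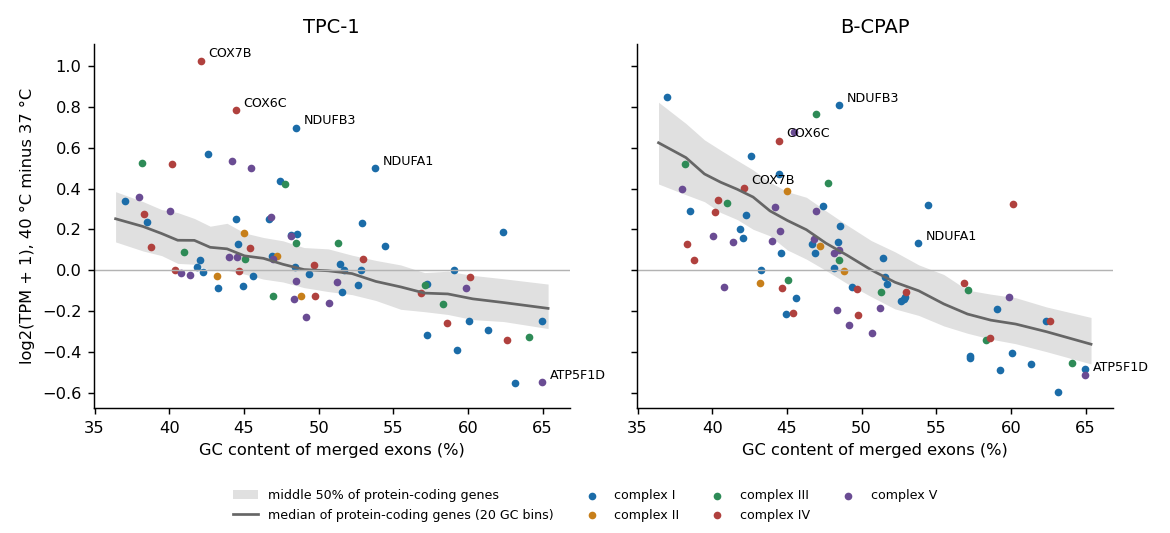
Difference in log2(TPM + 1) between 40 and 37 °C against GC content of the merged exons, for the 83 tested members (points, by complex), with the median and the middle 50% of 11819 protein-coding genes in 20 GC bins (line and band), 1 library per temperature. In both lines the points slope down with the line; in B-CPAP most lie under it, and NDUFB3 and COX6C lie above it in both.

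Each member was then set against genes of like GC content, as its difference minus the median of protein-coding genes in the same of 20 GC bins. The median of this adjusted difference was 0.02 in TPC-1, with 45 of 83 members above their bin's median (54.2%, background 49.9%). In B-CPAP it was -0.09, with 27 of 83 above (32.5%, background 49.9%). The B-CPAP medians were negative in all complexes, at -0.09 in complex I, -0.05 in complex II, -0.06 in complex III, -0.09 in complex IV and -0.15 in complex V. Quantile normalization turned the B-CPAP median to 0.02, so this direction depends on the scaling.

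After the adjustment 12 members in TPC-1 were 1.2-fold higher (14.5%, background 8.31%) and 3 lower (3.61%, background 4.38%), and 7 members in B-CPAP were higher (8.43%, background 12.5%) and 15 lower (18.1%, background 8.54%). In both lines 4 were higher, NDUFB3, COX6C, ATP5PO and UQCRH (4.82%, background 2.12%), and 1 was lower, NDUFA13 (1.2%, background 0.804%). NDUFB3 lay 0.69 and 0.73 above its GC bin on the log2 scale, COX6C 0.71 and 0.39, ATP5PO 0.43 and 0.43, and UQCRH 0.39 and 0.29. COX7B lay 0.88 above in TPC-1 and 0.01 in B-CPAP. Of the 14 members called higher in the protein-coding fit, COX7C, UQCRB and ATP5F1E lay below their bins in B-CPAP, at -0.14, -0.03 and -0.15. In TPC-1 they lay above, at 0.37, 0.31 and 0.15, and the rest of the 14 lay above in both lines. NDUFA13 rests on 10 to 41 reads a library. The 15 lower in B-CPAP included NDUFA4, COX7A2, COX6A1, SDHC, ATP5MC1, ATP5MC2, ATP5MC3 and ATP5F1B, with unadjusted ratios of 0.807 to 1.09.

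Between the lines, limma with temperature as a block called 9349 of 14912 genes. Of the 83 members 43 were called higher in B-CPAP (51.8%, background 29.9%) and 14 lower (16.9%, background 32.8%). Among them COX7B2, called higher, and COX6B2 and NDUFA4L2, called lower, passed the filter only through the line where they were high; these calls are a description. By complex the calls were 16 higher and 7 lower of 36 in complex I, 2 and 2 of 4 in complex II, 7 and 1 of 10 in complex III, 8 and 2 of 15 in complex IV and 10 and 2 of 18 in complex V. At both temperatures 56 members were higher in B-CPAP (67.5%, background 42%) and 19 lower (22.9%, background 47.4%). With 1 library left out and no block, fewer genes and fewer members were called. Those fits leave 1 group with 1 library, so their counts are not read as a result about the members.

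Among the complex IV paralogues COX7B2 separated the lines most. It was listed at 0 in both TPC-1 libraries and stood at 65.3 and 83.1 TPM in B-CPAP, on 393 and 469 estimated reads. Against a floor of 3 reads in a library this is at least 106-fold higher at 37 °C and at least 129-fold higher at 40 °C. The gene passed the filter only through B-CPAP, so no test is given. In B-CPAP it was close to the level of COX7B itself, 70.2 and 93.2 TPM, while TPC-1 held COX7B alone at 15.1 and 31.8 TPM. COX7B was also higher in B-CPAP (log2 difference 1.83, standard error 0.17, adjusted p = 0.000713 in limma).

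The other isoforms went the other way at low levels. COX6B2, a testis isoform, was at 3.02 and 2.93 TPM in TPC-1, against 0.288 and 0.615 TPM in B-CPAP. NDUFA4L2, known as a gene induced by hypoxia, was at 3.01 and 2.16 TPM, against 0.430 and 0.204 TPM. Both genes passed the filter only through TPC-1, so no test is given. Their common counterparts COX6B1 and NDUFA4 were far more abundant in both lines, at 235 to 290 TPM and at 73.5 to 127 TPM.

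**Figure D5:**
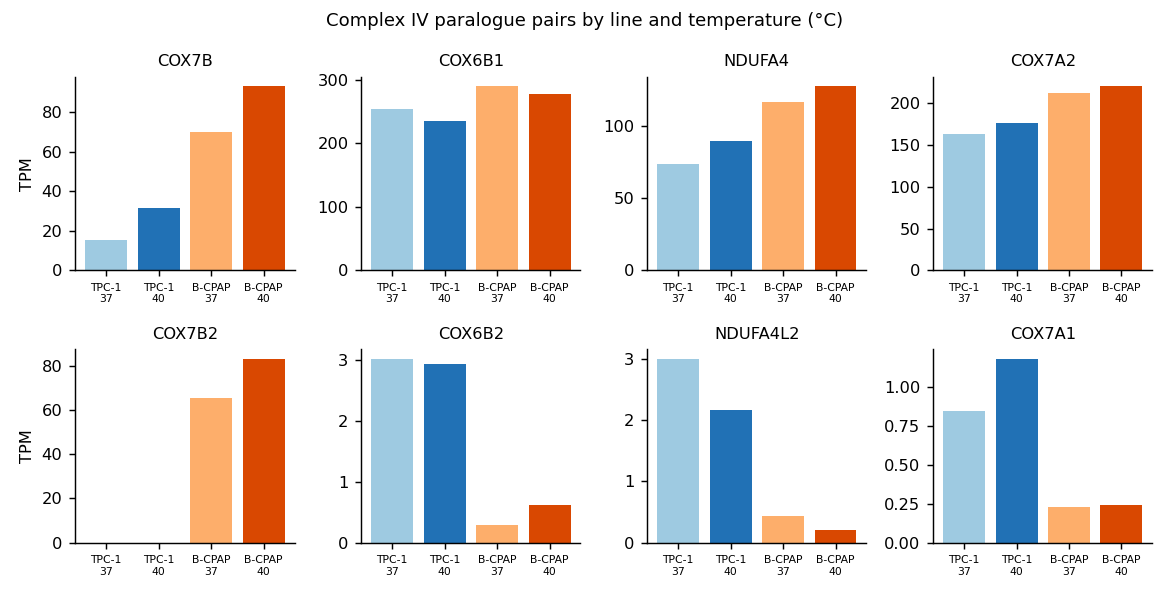
TPM of 4 complex IV gene pairs in the 4 libraries (bars from 0, 1 library each, axes differ between panels), the common gene above and its paralogue below. COX7B2 is at 0 in TPC-1, against 65.3 and 83.1 TPM in B-CPAP, while COX6B2, NDUFA4L2 and COX7A1 stay under 4 TPM in every library.

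In complex I, NDUFS5, a small accessory subunit, was at 288 and 327 TPM in TPC-1, against 837 and 972 TPM in B-CPAP (adjusted p = 7.2e-05 in limma). NDUFAB1, the mitochondrial acyl carrier protein, was at 60.5 and 68.3 TPM, against 179 and 181 TPM (adjusted p = 0.000209 in limma). Both were higher in B-CPAP at each temperature, as was NDUFB3. NDUFA3 was at 52.8 and 50.4 TPM in TPC-1, against 28.0 and 20.7 TPM in B-CPAP, and NDUFB8 at 25.5 TPM in both TPC-1 libraries, against 13.5 and 12.8 TPM. Both were lower in B-CPAP, with log2 differences of -1.07 and -0.91, each past the threshold in limma (adjusted p = 0.00161 and 0.0021). NDUFB8 shares 48.5% of its exon bases with other genes, HIF1AN among them, and how reads there were counted is not known.

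In the remaining complexes the largest line differences were smaller, apart from that of ATP5MF. ATP5MF, a membrane subunit of ATP synthase, was at 54.7 and 52.5 TPM in TPC-1, against 227 and 199 TPM in B-CPAP (log2 difference 1.97, standard error 0.08, adjusted p = 8.8e-05 in limma). ATP5F1E was 2.63-fold and 2.69-fold higher in B-CPAP at 37 and 40 °C. Complex II split, with SDHB and SDHD higher in B-CPAP (0.82 each on the log2 scale) and SDHA and SDHC lower (-0.52 and -0.45), all called by limma (adjusted p = 0.000743, 0.00167, 0.0236 and 0.0107), though the SDHA call was lost without the filter and under quantile normalization. UQCRB was lower in B-CPAP at both temperatures while 7 of the 10 complex III genes were called higher.

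Other genes of the pathway were read from lists chosen by function. Of 18 complex I assembly factors 11 were called higher and 1 lower in B-CPAP, and of 23 complex IV assembly factors, 21 of them tested, 10 and 2 (background 29.9% higher and 32.8% lower). In the temperature comparison the fit over all genes called none in any list, and the protein-coding fit (background 7.44% higher and 3.97% lower) called 1 complex I factor higher, TMEM126B (6.43 and 11.6 TPM, 35.1 and 46.1 TPM), and 2 lower, NDUFAF3 and ECSIT. Among complex IV factors it called PET100 alone, at 2.46 and 5.30 TPM in TPC-1, against 4.89 and 6.44 TPM in B-CPAP. Of the 13 mitochondrially encoded subunits it called 7 higher and 0 lower, beside the same background. Before any GC adjustment, 9 of these 13 were 1.2-fold higher at 40 °C for TPC-1, but only 1 for B-CPAP. Set against their GC bins, their median was 0.25 for TPC-1 and -0.19 for B-CPAP. With the lines in that order, TMEM126B lay at 0.51 and -0.24 against its bin, and NDUFAF3 at -0.12 and -0.01. ECSIT lay at -0.21 and -0.06, and PET100 at 0.95 and 0.50.

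Among 14 regulators of respiratory genes the protein-coding fit called GABPA and TFAM higher at 40 °C, beside a background of 7.44% called higher and 3.97% lower. GABPA, an ETS factor that acts on respiratory genes, was at 9.35 and 11.6 TPM in TPC-1, against 4.0 and 9.27 TPM in B-CPAP. TFAM, which packages and transcribes mitochondrial DNA, was at 25.8 and 34.5 TPM, against 16.7 and 24.1 TPM. Both are GC-poor, at 37.5% and 38.3%, and against their GC bins GABPA lay 0.07 and 0.49 above and TFAM 0.19 above and -0.05. The coactivator PPARGC1A was at 0 and 0.0159 TPM in TPC-1, against 1.80 and 2.67 TPM in B-CPAP. CYCS, cytochrome c itself, was at 55.0 and 62.9 TPM, against 138 and 210 TPM. NRF1 had ratios of 0.933 and 1.09.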

How the data were processed

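RNA was sequenced in 4 libraries, 1 per line and temperature. Per the submitters' processing notes, reads were trimmed with Trimmomatic 0.38 and counted with featureCounts 2.0.0 on GRCh38; no source used here names the aligner. The authors deposited a table of TPM. The library kit (TruSeq RNA v2, per the labels) does not mark strand, so reads on overlapping exons cannot be assigned by strand. How the counting treated such reads is not known here.

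Computed here: gene names, exon length and GC content from GENCODE 29; log2(TPM + 1); a filter at a mean of 1 TPM; limma 3.58.1 in R 4.3.3 with an intensity trend and Benjamini-Hochberg adjustment over 14912 genes, at 0.05. In the temperature comparison the lines are the replicates, so p-values measure only the spread between 2 different lines. In the line comparison the 2 temperatures are the replicates, so its p-values measure no spread between cultures of a line at the same temperature. Reads per gene were estimated as TPM times exon length divided by a step per library; 90.6% to 92.0% of values up to 20 reads came out whole within 0.02, but only 66.1% to 67.7% of those from 20 to 200 reads, so no count test was run. These reads gave exact Clopper-Pearson 95% intervals. COX7B2 enters TPC-1 counts with a difference of 0. limma was tested on simulated data. Named genes were the up to 4 highest and 4 lowest members of each complex by mean difference, up to 3 each way between lines, paralogue groups and members below the filter; others were named after their values were seen. The members and lists were chosen with earlier results of these data known. The NRF1 and YY1 cores replaced longer forms searched first, after the counts of those were seen. Alternatives covered pseudocount, filter, scaling, GC binning, block and left-out libraries. All columns of the table were used.

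The block on line compares the temperatures within each line; the labels give no replicate numbers. Some genes are not reported here.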

Additional observations from a re-analysis of the deposited data

Results flagged for a closer look

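COX6A1, a complex IV subunit, had 165 (37 °C) and 178 TPM (40 °C) in TPC-1, against 185 and 160 TPM in B-CPAP. It was higher at 40 °C in TPC-1 (ratio 1.08, 95% counting interval 1.002 to 1.17) and lower in B-CPAP (0.863, 0.806 to 0.925), and the log2 differences were -0.322 apart, B-CPAP minus TPC-1. It is given because the lines moved in opposite directions, each with a counting interval that leaves out 1, by a narrow margin in TPC-1. With 1 library per line and temperature the difference was not tested, and its processed pseudogene COX6A1P2 held 1.05 to 3.51 TPM.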

How the results depend on the processing

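Of the named members' differences, those between lines kept their direction in the settings run, while 23 of those between temperatures turned. None of them was called in the fit reported or in the setting that turned it. As the fit reported called 0 genes between temperatures, that lack of calls says nothing about the turns. Centring turned NDUFAB1 and SDHB to -0.0456 each, COX7A2 to -0.0567, ATP5F1A to -0.0343, ATP5MJ to -0.0122, UQCRQ to -0.127 and UQCR10 to -0.0464. Quantile normalization turned COX6A1 to 0.00577 and COX5B to 0.0324, and leaving out mitochondrially encoded genes turned COX5B to 0.0203 and NDUFB8 to 0.00733. GC adjustment turned COX7A2 to -0.301, ATP5F1E to -0.00352, UQCRC2 to -0.0785, ATP5F1A to -0.0932, ATP5MJ to -0.0304, ATP5MG to -0.058, COX7B2 to -0.118, NDUFA4 to -0.181, COX6B1 to 0.0757, UQCR11 to 0.0793, COX5B to 0.0134 and NDUFB8 to 0.00258. Of these ATP5F1E was called higher at 40 °C with protein-coding genes only and with a mean of at least 5 TPM. The cause was not tested. The temperature comparison, with 0 genes and 0 members called, gave 2 genes with a pseudocount of 5, 49 genes (0 members) with libraries centred on the median, 867 genes (20 members) with a mean of at least 5 TPM, 1350 genes (23 members) with protein-coding genes only and 2 genes (1 member) after GC adjustment. It gave 0 in the other limma settings, where 1728 to 3066 genes had an unadjusted p under 0.05. Without the block on line it called 0 genes (53 unadjusted), and leaving out 1 library gave 0 in each case. The block pairs the temperatures within a line, or the lines at a temperature; the labels carry no other pairing. The line comparison called 7469 genes and 38 members without the block, and 2911 to 5719 genes (3014 and 5101 between them) and 6 to 27 members when 1 library was left out, the remaining lone library being assumed to vary like the others; the 6 members came without TPC-1 at 37 °C. The SDHA line call was lost without the filter and with quantile normalization, and that of ATP5F1A with centring and without mitochondrially encoded genes.

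The median difference of members in TPC-1 was 0.0535 for members with at most 20% of exon bases shared (chosen after seeing the data), -0.0667 centred, 0.0546 with quantile normalization and 0.0813 without mitochondrially encoded genes. In B-CPAP it was 0.00722 without the filter, 0.0325 at a mean of at least 5 TPM, -0.133 centred, 0.0239 with quantile normalization and 0.0861 without mitochondrially encoded genes. Centring moved the median of all tested genes from 0.03 to -0.07 in TPC-1 and from 0.09 to -0.10 in B-CPAP. The GC-adjusted median in B-CPAP was 0.0153 with quantile normalization and between -0.096 and -0.056 in the other alternatives. At 1.5-fold, 3 members were higher and 0 lower in TPC-1, and 5 higher and 1 lower in B-CPAP. The 1.2-fold counts became 11 lower in TPC-1 and 8 higher and 33 lower in B-CPAP when centred, and 4 lower in TPC-1 with a pseudocount of 5. The shares over all tested genes in these settings are not given, so these counts are not read as a result about the members. After GC adjustment the counts became 3 lower in TPC-1 (background 4.38%) and 7 higher in B-CPAP (background 12.5%). Summed TPM was 12519.7, 12948.1, 18024.5 and 17847.0 without mitochondrially encoded genes, and 12900.3, 13429.8, 18657.8 and 18700.8 over nuclear protein-coding genes, which put B-CPAP at 40 °C slightly above 37 °C. The cause of these shifts was not tested.

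Depth limits NDUFA13, NDUFA7, NDUFV2, COX6B2, NDUFA4L2 and COX7A1, which rest on few reads. Pseudogenes named after members summed to 48.4 to 65.2 TPM, 0.344% to 0.629% of the members.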
